A study of Mus musculus with 4 samples.

Results

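Some abundant long non-coding RNA (lncRNA) features of the mouse ovary stayed within 2-fold of their level through an 8-day culture, and 113 such features are described here. The tables list 50821 features in at least 1 library. Of these, 24548 carry a NONMMUG identifier, the prefix of mouse genes in the NONCODE collection of non-coding RNA, and are listed in all 4 libraries. A feature was kept when it had fewer than 10 transcripts, FPKM of 10 or more in every library and a highest FPKM at most 2 times its lowest. FPKM is a level per length, fragments counted per kilobase and divided by the library total. The minimum and the transcript limit left 228 features, 5 very abundant ones were left out by name, and 113 of the other 223 (50.7%) met the ratio limit. The 5 were left out whether or not they met the ratio limit. The members were chosen by their FPKM levels in all 4 libraries, so their steadiness is the rule and not a finding, and values of that kind are given as a description.

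The libraries came from ovaries of 3-day-old mice (2 libraries) and from ovaries removed at that age and kept in vitro for 8 days (2 libraries), all total RNA in strand-specific libraries. The day 3 libraries are titled CK and the cultured ones Treat, each with its library number. These titles do not say whether Treat means the culture alone or a further treatment, and this was not tested. No genotype, strain or added agent is named for either group, and age and culture differ together. The labels tie the earlier stage to resting primordial follicles and the later one to follicles that have begun to grow. Nothing in them tells whether the 2 libraries of a group were made from different animals, so a p-value here measures no more than library-to-library spread, possibly technical. In RNA from whole ovaries, fewer cells of a type and less RNA per cell cannot be told apart.

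A primordial follicle is an oocyte wrapped in flattened somatic cells, and it can rest for much of the animal's life. On activation the somatic cells become cuboidal granulosa cells that divide while the oocyte enlarges. Long non-coding RNAs are transcripts without a known protein product. Some bind chromatin or proteins, and others carry small nucleolar RNAs in their introns, so abundance alone says little about function. The tables pair no identifier with a gene symbol, and none of the 50821 identifiers occurred in the reference tables at hand (0 matched). Roles, positions, sequences and the ovary's defining markers (15 symbols sought, 0 found) were therefore not analysed here, and the features are described by identifier, length and level.

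Listed features had 18215834 to 26566784 estimated counts in all per library, and the members' own counts ran from 94.99 to 71841 in single libraries. Counting error alone is 10.3% at the lowest of these counts, 2.61% at the median member's mean of 1466 counts and 0.373% at the highest. The reads carry no molecular identifiers and may repeat the same molecule, so these errors and the intervals given here cover counting only. Cultured library 1 stood apart, with 11211 features at FPKM 0.5 or above against 6991 to 7334 in the other libraries. The counts of members by direction and by rescaled ratio are also given without it, an addition made after the data were seen.

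The steady features spanned a wide range of levels. The lowest FPKM of a member in any library was 10.0 and the highest 4004, with medians of 27.6 and 26.0 in the day 3 libraries and 30.6 and 28.3 in the cultured libraries. By mean FPKM over the 4 libraries, 61 members lay from 10 to under 30, 26 from 30 to under 100, 20 from 100 to under 1000, and 6 at 1000 or above. The group is therefore mostly made of features near the minimum, with a short tail of very abundant ones.

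**Figure D1:**
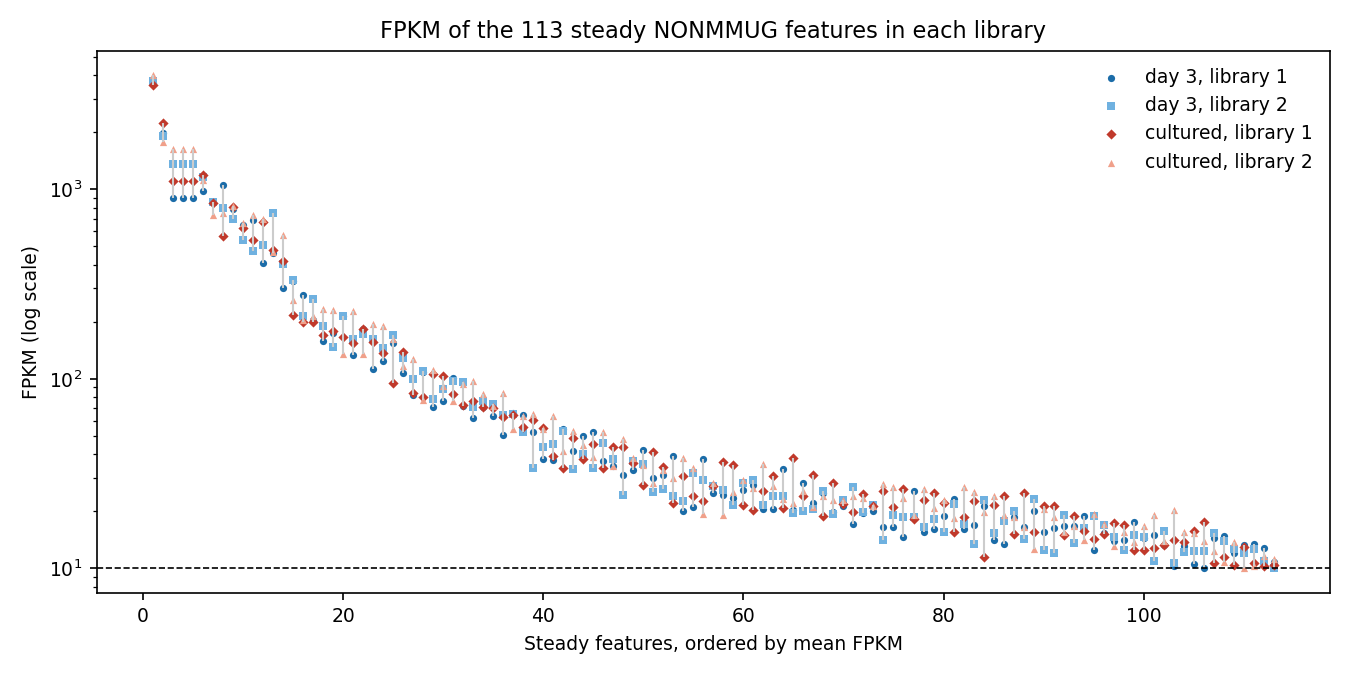
FPKM (log axis) of each of the 113 steady features in the 4 libraries, 1 column of points per feature in order of mean FPKM, with a grey line from the lowest to the highest library and a dashed line at the minimum of 10. The levels fall steeply over the first features, the highest at 4004, and 61 of the 113 have a mean below 30.

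NONMMUG036590.2, a single transcript of 325 bases, was the most abundant member. Its FPKM was 3637 and 3721 in the day 3 libraries and 3564 and 4004 in the cultured libraries. The groups overlap, since cultured library 1 was the lowest of all and cultured library 2 the highest. By FPKM it ranked 10 and 8 among all listed features at day 3 and 8 and 8 after culture, a measure that no scaling of whole libraries can move.

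NONMMUG030867.2, with 6 transcripts and a mean length of 207 bases, followed at FPKM 1998 and 1926 at day 3, against 2243 and 1781 after culture. The highest and the lowest value both came from cultured libraries. Its rank was 12 in both day 3 libraries and 10 in both cultured libraries. NONMMUG030869.2, a transcript of 205 bases with a nearby identifier number, was at 651 and 543 in the day 3 libraries and 629 and 663 in the cultured ones, and ranked 22 in both day 3 libraries and 22 and 25 in the cultured ones.

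The next 3 places are held by NONMMUG007169.2, NONMMUG007170.2 and NONMMUG007173.2, each 214 bases long and with the same estimated count in every library. Each was listed at FPKM 904 and 1364 at day 3, against 1108 and 1640 after culture. Equal counts of 6913, 10147, 7779 and 10676 mean that their reads cannot be assigned to 1 of them, and they are uncertain as separate genes. Counted once, they leave 111 members. Here library 2 was the higher of both groups, and the spread within each group was larger than the difference between the group means of 1134 ± 325 and 1374 ± 377 (SD, n = 2 each).

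NONMMUG035615.2, of 423 bases and 2 transcripts, was at FPKM 981 and 1166 in the day 3 libraries and 1190 and 1120 in the cultured ones, with overlap between the groups. NONMMUG009847.2, of 275 bases, stood at 861 and 863 at day 3 and at 846 and 729 after culture, both cultured libraries just below both day 3 libraries. NONMMUG019321.2 went the other way, with 786 and 701 at day 3 and 810 and 814 after culture. It is the only member of 1000 bases or more among the 12 most abundant, at 1916 bases. With 62584 to 71841 counts per library it also held between 15.3% and 17.3% of all counts of the steady features.

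Among the rest of the 12 most abundant, NONMMUG007645.2 (375 bases) stood at 1061 and 800 FPKM at day 3, and at 567 and 747 after culture. NONMMUG027654.2 (414 bases) had 686 and 473 at day 3 and 543 and 734 after culture, the cultured values lying inside and above the day 3 range. NONMMUG034407.2 (291 bases) had 408 and 512 at day 3 and 674 and 702 after culture. So even within the limit the top members differ in pattern, with the first lower, the second mixed and the third higher in the cultured libraries.

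The ratio of the highest to the lowest library varied from 1.08 to 2.00 among members, with a median of 1.52. It was at most 1.1 for 2 members, at most 1.2 for 12 and at most 1.5 for 55. The tightest was NONMMUG017009.2, a transcript of 4521 bases, with FPKM 21.3 and 23.0 at day 3, against 21.9 and 22.9 after culture. NONMMUG016254.2, of 1101 bases, had the same ratio of 1.08, with 20.01 and 21.6 at day 3 and 21.3 and 21.2 after culture. In both, the day 3 libraries bracket the cultured ones.

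NONMMUG009184.2 (310 bases) had FPKM 10.8, 10.1, 10.4 and 11.2, a ratio of 1.11 (libraries here and in later lists of 4 values stand in the order day 3 library 1, day 3 library 2, cultured library 1, cultured library 2). It is also 1 of the 3 members nearest the FPKM minimum. NONMMUG010738.2 (2 transcripts, mean length 1310 bases) had 24.96, 27.2, 27.3 and 28.0, a ratio of 1.12, as had NONMMUG036590.2. These 5 tightest features include the most abundant member and 1 of the least abundant, so tightness was found at both ends of the level range.

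At the limit of the ratio, NONMMUG025670.2 had FPKM 21.4, 22.9, 11.5 and 19.8, a ratio of 2.00 set by cultured library 1 alone. NONMMUG034033.2 had 10.2, 10.6, 14.2 and 20.3, and NONMMUG005207.2 had 31.1, 24.4, 43.7 and 48.2. NONMMUG073887.1 had 16.6, 14.1, 25.7 and 27.8, and NONMMUG086982.1 had 20.3, 19.5, 38.3 and 22.2, again with cultured library 1 apart. The first of these 5 was lower in both cultured libraries, and the other 4 were higher in both.

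Just outside that limit, NONMMUG004657.2 (12.1, 12.8, 24.5 and 13.7) and NONMMUG068015.1 (11.4, 10.1, 20.6 and 11.8) had a ratio of 2.04, and NONMMUG023197.2 (31.7, 20.4, 22.9 and 15.4) one of 2.06. In the first 2 of these, cultured library 1 was the one that stood apart. Just inside the FPKM minimum were NONMMUG059522.1 with a lowest value of 10.0, NONMMUG038093.2 with 10.04 and NONMMUG009184.2 with 10.07. Just outside it were NONMMUG086864.1 at 9.95, NONMMUG063047.1 at 9.92 and NONMMUG002447.2 at 9.89. The members thus pass without a gap into features on the other side of each limit.

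Within the allowed range, the direction of the difference between groups was mixed. Both cultured libraries lay above both day 3 libraries in FPKM for 37 members and below them for 23, and the groups overlapped for 53. Over all 8557 features tested, the groups did not overlap in 56.7% (37.9% with the cultured libraries higher and 18.8% lower). The members' 60 of 113 (53.1%) is near that background and is no result about them. Without cultured library 1, cultured library 2 alone lay above both day 3 libraries for 61 members (54.0%) and below both for 29 (25.7%), against 40.9% and 38.6% of all features tested. The rule bounds these differences, and nothing is read from the shares. The highest value fell in cultured library 2 for 45 members, in cultured library 1 for 27, and in day 3 libraries 1 and 2 for 22 and 19. The lowest value fell most often in day 3 library 1, for 44 members, and least often in cultured library 2, for 16.

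**Figure D2:**
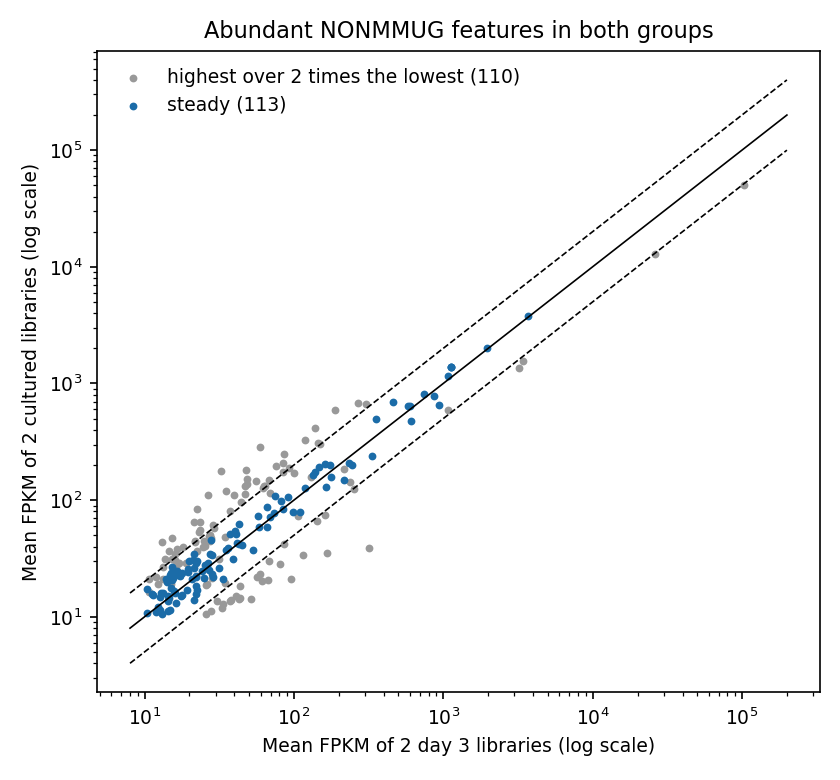
Mean FPKM of the 2 cultured libraries against that of the 2 day 3 libraries (both log axes) for 223 abundant NONMMUG features, with the line of equality and dashed lines at 2-fold either way. The 113 steady features lie inside the dashed lines by their rule, and the 110 others lie mostly outside or near them, on both sides.

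Differences between libraries of the same group are set here beside those between group means. A mean of 2 libraries varies less than a single library, so the sizes are not like for like. For the members, the median absolute difference in log2(FPKM + 0.5) was 0.21 between the day 3 libraries, 0.24 between the cultured libraries and 0.28 between the group means. For the 110 abundant features outside the ratio limit the same medians were 0.48, 0.27 and 1.13. For all features tested they were 0.24, 0.43 and 0.46. The rule bounds all 3 of the members' values, and they are given to show their size only.

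In the test across all 8557 features (edgeR quasi-likelihood test on rounded counts, TMM scaling, Benjamini-Hochberg adjustment), 0 of the 113 members were higher or lower after culture at an adjusted p below 0.05, where 14.4% of all features tested were called. At an unadjusted p below 0.05 there were 3 members, all lower after culture, against 27.1% of all features. TMM, the trimmed mean of M-values, sets library scales so that most features tested show little net change. Limma on log2(FPKM + 0.5) also called 0 members (9.62% of all features). Its 3 members at an unadjusted p below 0.05 were all higher after culture, unlike those of edgeR, against 2174 of the 8557 features. DESeq2 called 1 (12.7% of all features). The rule used this contrast, so nothing is read from these counts. In simulated counts with the same group sizes, edgeR called only 7 of 74 features changed 2-fold. Those were drawn from all features tested, with the same library-to-library spread set for every feature, so the rate for members may differ. A missed threshold does not show that a member kept its level.

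Fitted log2 fold changes of the members ran from -0.999 to 0.52, with standard errors from 0.36 to 0.47 (edgeR, 2 libraries against 2). Their median was -0.16, with 41 positive and 72 negative, against a median of 0.08 over all features tested. Scaled instead by the library totals behind the deposited FPKM values, the median was 0.14, with 77 positive and 36 negative, against 0.45 over all features. Under that scaling edgeR called 0 members (7.99% of all features). Its unadjusted p was below 0.05 for 2 members, both higher after culture. Of all features tested 25.9% were below it, 1464 higher and 749 lower. Whether the members as a group lay slightly above or slightly below their day 3 level therefore turned on the scaling. Without cultured library 1 the members' median was 0.11 and that of all features -0.03 with TMM scaling. The ratio limit bounded the members' differences in this contrast, so nothing is read from how their median stands to that of all features.

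The member that DESeq2 called was NONMMUG044358.2, a single transcript of 939 bases. Its FPKM was 37.6 and 29.3 at day 3 and 22.5 and 19.4 after culture, with both cultured libraries lower. DESeq2 gave a log2 fold change of -1.04 (SE 0.375, adjusted p = 0.0449), and edgeR one of -0.999 (SE 0.378, adjusted p = 0.0952). It was named after its values were seen, as were NONMMUG019605.2 and NONMMUG025098.2, the others with an unadjusted edgeR p below 0.05. NONMMUG019605.2 had FPKM 19.98, 23.2, 15.5 and 12.6, and NONMMUG025098.2 had 216, 214, 166 and 135. In all 3 the cultured libraries lay below the day 3 libraries.

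Scaling mattered most for cultured library 1. Over all features tested, log2(FPKM + 0.5) in that library exceeded day 3 libraries 1 and 2 by medians of 0.50 and 0.45, while the same medians for cultured library 2 were 0.05 and -0.01. The members' medians were 0.11 and -0.02 for cultured library 1 and 0.14 and 0.15 for cultured library 2. For the 110 abundant features outside the limit they were 1.06 and 0.69 for cultured library 1 and 0.47 and 0.20 for cultured library 2. The rule bounds the members' differences, and nothing is read from the contrast. When FPKM was rescaled by TMM, the members' median in cultured library 1 moved from -0.02 to -0.47 relative to each feature's own mean on the log2 scale. Cultured library 1 was then the lowest library for 97 of 113 members. The highest to lowest ratio stayed within 2 for 72 members and exceeded it for 41. With TMM factors from the 3 other libraries and without cultured library 1, it stayed within 2 for 112 members and exceeded it for 1. The lowest library was then day 3 library 1 for 42 members, day 3 library 2 for 37 and cultured library 2 for 34. The rule had already held those 3 libraries within 2 as deposited, and rescaling moved them little (scales 0.964, 1.016 and 1.021). The 112 was thus largely fixed in advance, and nothing is read from it.

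**Figure D3:**
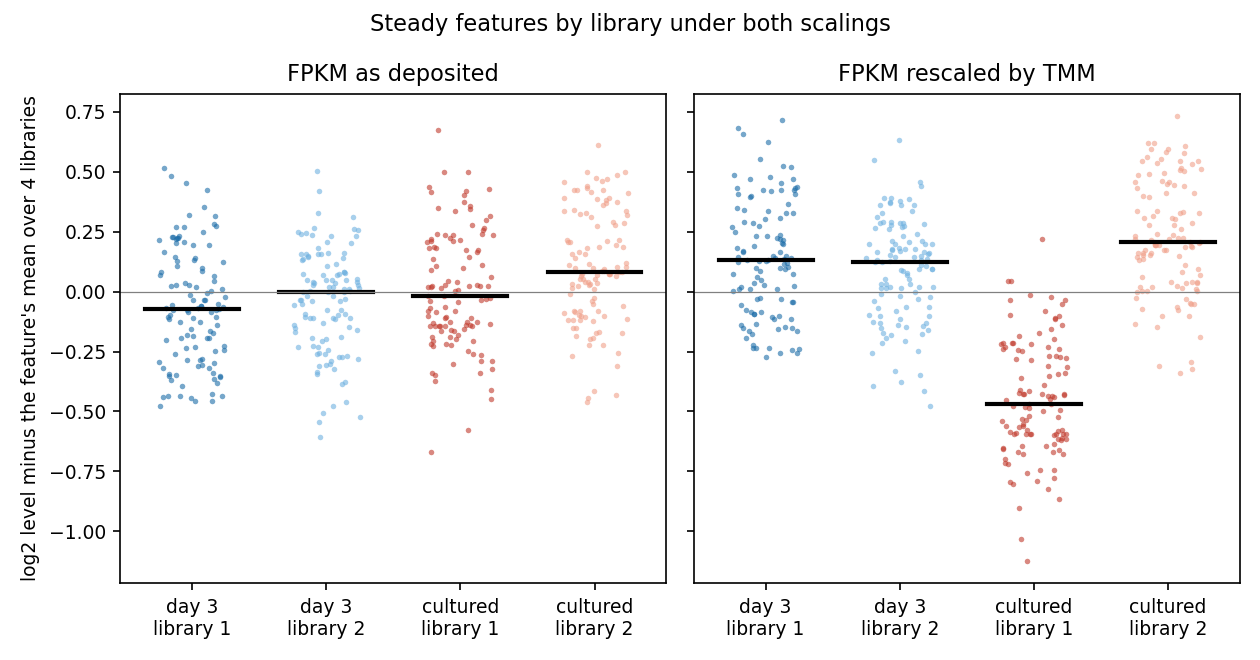
Level of each steady feature in each library relative to that feature's mean over the 4 libraries (log2), as deposited on the left and after TMM rescaling on the right. Points are features and bars are medians. The 4 medians lie between -0.07 and 0.08 on the left, and the median of cultured library 1 drops to -0.47 on the right while the others lie between 0.12 and 0.21.

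Applied to the rescaled values, the full rule kept 94 features, of which 65 were members and 29 were not. Without cultured library 1 it kept 140 on the rescaled values of the other 3 libraries, 110 of them members, a number again largely set by the rule. Over all 4 libraries, steadiness of a given feature thus depended on the scale. NONMMUG027654.2 and the 3 features of 214 bases left the ratio limit, with rescaled ratios of 2.01 and 2.21, and NONMMUG007645.2 had one of 2.95. NONMMUG036590.2 and NONMMUG030867.2 remained within it, with 1.67 and 1.40. The most abundant features were thus divided between both outcomes.

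Leaving out cultured library 2 changed the calls. EdgeR then called 8 members lower after culture, while 9.91% of all features tested were called lower, and the members' median log2 fold change was -0.64 against 0.02 over all features. The 8, named because of that call, were NONMMUG001461.2, NONMMUG003708.2, NONMMUG007310.2, NONMMUG007645.2, NONMMUG018930.2, NONMMUG025670.2, NONMMUG042277.2 and NONMMUG044358.2. Their log2 fold changes in that fit ran from -1.64 (NONMMUG025670.2) to -1.19 (NONMMUG003708.2). Both this fit and the one without cultured library 1 rest on a lone cultured library, and nothing is read from how many members they called.

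In all 8 of them cultured library 1, the only cultured library in that fit, lay below both day 3 libraries in FPKM. NONMMUG007310.2 (411 bases) stood at FPKM 330 and 333 at day 3, against 217 and 262 after culture. NONMMUG042277.2 (1097 bases) stood at 54.2 and 52.9 at day 3 and 33.6 and 41.6 after culture. NONMMUG001461.2 (797 bases) had 155 and 171 at day 3 and 95.5 and 163 after culture. In this last feature cultured library 2 lay inside the day 3 range, and cultured library 1 alone was low.

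Length is a property the ratio limit did not use. The members' median length was 740 bases, from 203 to 4917, against 1104 bases for the 110 abundant features outside the limit and 1520 for all features tested. Of the members, 16 (14.2%) were under 300 bases, 20 were from 300 to under 500, 44 from 500 to under 1000, 19 from 1000 to under 2000, and 14 were of 2000 bases or more. The 16 include the 3 features of 214 bases with equal counts. Of the 110 others only 1 (0.9%) was under 300 bases and 8 were from 300 to under 500, while 42 were from 1000 to under 2000. No test was made of this difference, since features are not replicates.

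**Figure D4:**
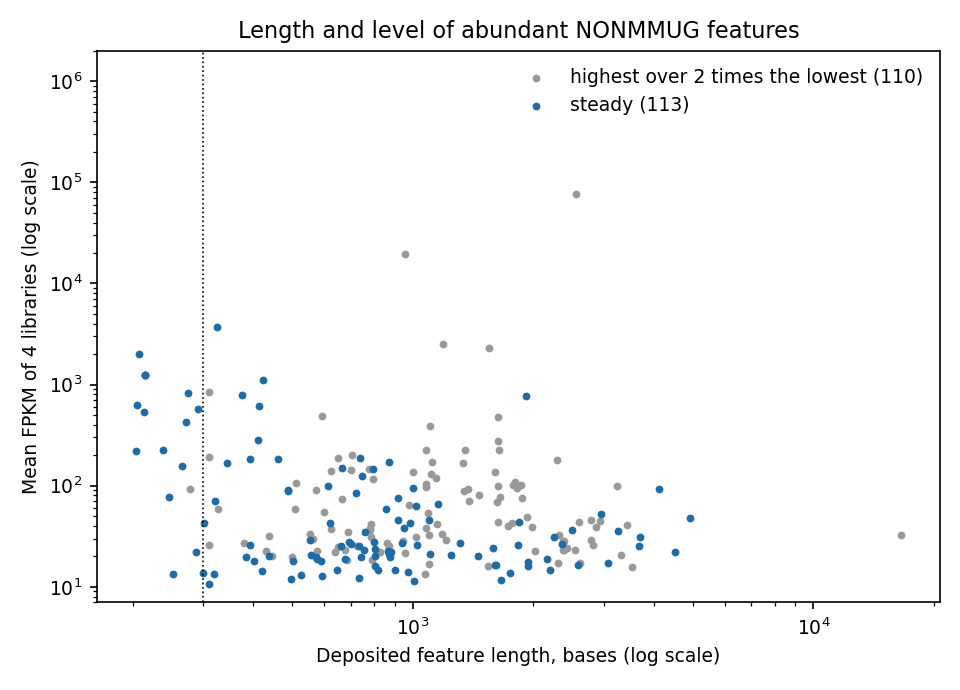
Mean FPKM over the 4 libraries against deposited length (both log axes) for the 113 steady features and the 110 abundant features outside the ratio limit, with a dotted line at 300 bases. Left of the line lie 16 steady features, with a median of 483 FPKM, and 1 of the others. The 16 include the 3 features of 214 bases with equal counts.

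The short members were also the more abundant ones per length. Median mean FPKM was 483 for the 16 members under 300 bases and 79.7 for those from 300 to under 500. The 16 include the 3 features of 214 bases with equal counts, each at a mean of 1254. Counting these once would lower the 483. It was 24.4, 21.0 and 28.8 in the 3 longer classes. The shortest were NONMMUG044224.2 (203 bases; FPKM 205, 264, 201 and 216), NONMMUG030869.2 and NONMMUG030867.2. In counts, which are not per length, the medians of the 5 classes in order of length were 3985, 1300.5, 771, 1391 and 4140, so the shortest and the longest class had the highest.

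The deposited FPKM divides by less than the full length. The count divided by FPKM followed length minus 57.2 to 64.6 bases, depending on the library, so the divisor of a short feature was well below its deposited length. With FPKM recomputed on the full length, 101 of the 113 met the rule and no other feature joined. This recalculation was chosen after the data were seen.

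The longest members differed in pattern. NONMMUG025262.2, of 4917 bases, was at FPKM 37.7 and 43.5 at day 3 but at 54.8 and 54.4 after culture. NONMMUG034707.2, of 4117 bases, had 70.6 and 78.7 at day 3 and 106 and 112 after culture. In both, the cultured libraries were higher without overlap, unlike NONMMUG017009.2, the third of the longest. Of the 14 members of 2000 bases or more, the cultured libraries were higher without overlap in 8 and lower in 0, where 42.6% and 12.1% of the 3105 tested features of that length were higher and lower. Without cultured library 1, cultured library 2 lay above both day 3 libraries in 10 of the 14 and below both in 1, against 43.8% and 36.3% of those features. With 14 members chosen by these FPKM values, nothing is read from the counts.

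On the FPKM scale the median log2 difference of these 14 members was 0.34, and it was 0.28, 0.04, 0.05 and 0.09 in the 4 shorter classes in order of length. The edgeR medians with TMM scaling were 0.02 for the longest class and 0.04, -0.23, -0.24 and -0.16 for the others. No member of any class passed edgeR's test under either scaling. All features tested of 2000 bases or more had medians of 0.33 on the FPKM scale and 0.19 with TMM scaling.

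Exon structure was not analysed here, and the members are described by their number of listed transcripts. A single transcript was listed for 81 of 113 (71.7%), against 92 of 110 (83.6%) of the abundant features outside the limit and 73.6% of all features tested. The other 32 members had 2 to 7 transcripts. Estimated counts were whole numbers, exactly as printed, in all 4 libraries for 31 members (27.4%). This held for 11 of the 110 others (10.0%) and for 39.7% of all features tested. Among single-transcript features the shares were 24.7%, 8.7% and 42.0% in the same order. A count that is not whole may hold reads that the estimation divided between features or transcripts, and whether it does was not tested.

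Where a feature has several transcripts, its listed length is taken here as a weighted average over them, which can move when the mix of transcripts does. Among the 32 such members, it differed by at most 1.1 times between libraries for 27 and by more for 5. Of 2218 tested features with several transcripts, 46.9% differed by over 1.1 times. Of the 18 abundant features outside the ratio limit with several transcripts, 2 (11.1%) did so, near the members' 15.6%. The small share is thus not particular to the members. All 5 members that differed by over 1.1 times had a longer mean length in both cultured libraries than in either day 3 library. Among the 1040 tested features that differed by over 1.1 times, 287 (27.6%) were longer and 180 (17.3%) shorter after culture without overlap. No test was made of this difference. In all, 7 of the 32 were longer without overlap after culture and 4 were shorter, against 21.2% and 15.6% of the 2218 features. The members' 21.9% and 12.5% are near that background.

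NONMMUG024052.2, with 6 transcripts, had the widest shift in length. Its deposited mean length was 1470 and 1313 bases at day 3 and 1759 and 2087 bases after culture, and its FPKM was 13.5 and 12.6 at day 3 and 10.7 and 10.3 after culture. Counts of 935 and 771 at day 3 and 809 and 864 after culture overlapped, while length and FPKM did not. The lower FPKM thus went with a longer length, by which the count is divided.

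NONMMUG007015.2, with 7 transcripts, had mean lengths of 477 and 491 bases at day 3 and 545 and 589 after culture. NONMMUG008177.2, with 4 transcripts, had 599 and 651 bases at day 3 and 686 and 703 after culture. NONMMUG045988.2, with 2 transcripts, had 798 and 777 at day 3 and 891 and 811 after culture. In NONMMUG084653.1, with 3 transcripts, lengths were 1529 and 1523 at day 3 and 1697 and 1592 after culture. These are shifts in the deposited mean length, and whether the mix of transcripts shifted was not tested. Besides, 2 libraries against 2 allow no exact permutation p below 0.333. The 5 were named after their lengths were seen.

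**Figure D5:**
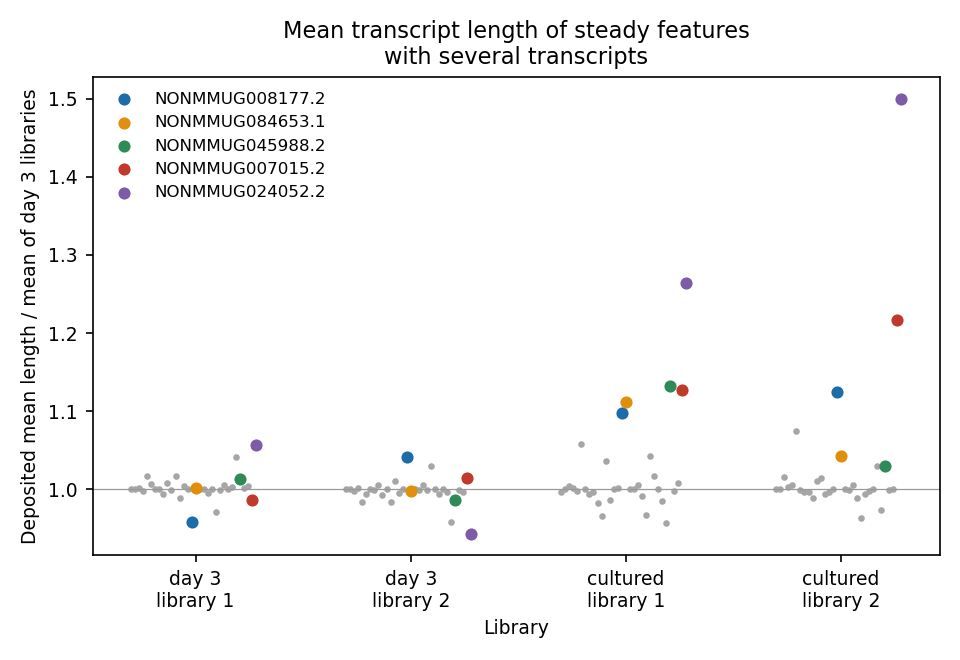
Deposited mean length in each library divided by the mean of the day 3 libraries, for the 32 steady features with several transcripts. Coloured points are the 5 whose highest length is over 1.1 times the lowest, and grey points are the other 27. All 5 lie above 1 in both cultured libraries, with NONMMUG024052.2 the highest.

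Several members have consecutive or nearly consecutive identifier numbers. Runs with steps of at most 3 between numbers among the 223 abundant features gave 10 runs holding 18 members and 8 features that are not members. Whether such features are neighbours in the genome was not analysed here. In 5 runs all features were members, among them the 3 features of 214 bases.

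NONMMUG066181.1 (874 bases), NONMMUG066182.1 (666 bases) and NONMMUG066183.1 (736 bases) form another run. Their FPKM values were 133, 163, 154 and 228 for the first, 124, 145, 137 and 191 for the second and 158, 191, 170 and 233 for the third. The order of the libraries was the same in all 3, with cultured library 2 the highest and day 3 library 1 the lowest, and library 2 above library 1 in both groups. NONMMUG001279.2 and NONMMUG001280.2 (272 and 265 bases) also had day 3 library 1 lowest and cultured library 2 highest, with 302, 405, 420 and 576 for the first and 113, 162, 156 and 194 for the second. NONMMUG032187.2 (15.5, 16.5, 23.0 and 26.3) and NONMMUG032188.2 (16.6, 19.0, 20.9 and 26.9) were higher in both cultured libraries, as was NONMMUG001279.2, while the groups overlapped for NONMMUG001280.2 and the 3 features of the run before it.

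The other 5 runs set steady features beside features outside the ratio limit. NONMMUG034154.2 (321 bases) had FPKM 64.0, 74.0, 70.2 and 71.9, while NONMMUG034156.2 (1079 bases) stood at 22.3 and 43.1 at day 3 and 186 and 167 after culture. The latter rose in edgeR's test (log2 fold change 2.13, SE 0.442, adjusted p = 0.0052). NONMMUG010211.2 (3254 bases) had 33.2, 36.6, 36.0 and 38.2, beside NONMMUG010208.2 with 83.3, 156, 318 and 338, which did not pass edgeR's test (log2 fold change 1.18, SE 0.457, adjusted p = 0.103).

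In a pair of these runs both features were higher in both cultured libraries. NONMMUG036080.2 (2 transcripts, mean length 2955 bases) had FPKM 52.4, 33.7, 60.5 and 64.8, and NONMMUG036079.2 (1607 bases), outside the limit, had 85.6, 115, 149 and 193. Their log2 differences in FPKM were 0.58 and 0.78. NONMMUG073887.1, with the values given at the ratio limit, stood beside NONMMUG073888.1 (1627 bases) with 30.15, 27.9, 58.1 and 57.4, and their differences were 0.81 and 0.99. None of the 4 passed edgeR's test, with adjusted p of 0.756, 0.489, 0.417 and 0.284 in the order named.

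The longest run, of 6 features numbered from NONMMUG044353.2 to NONMMUG044358.2, holds 2 members, NONMMUG044356.2 and NONMMUG044358.2. NONMMUG044356.2 (2351 bases) had FPKM 24.5, 26.0, 36.5 and 19.2, with the cultured libraries on either side of the day 3 values. NONMMUG044354.2, in the same run, had 108124 and 97986 at day 3 and 55812 and 45615 after culture, and NONMMUG044353.2 had 24642, 27506, 14308 and 11369. These 2 and NONMMUG044358.2 were lower in both cultured libraries on the deposited scale, and none of the 6 passed edgeR's test with TMM scaling.

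The steady features held a small part of the listed counts, and the 5 features left out by name are not in that part. Some of those 5 were also steady and far more abundant, such as NONMMUG043413.2 (ratio 1.16, FPKM 173246 to 201433). The small share thus depends on leaving them out. The members took 416280 and 418294 counts at day 3 and 401129 and 403470 after culture. Of all listed counts these were 1.57% and 1.59% at day 3 and 1.92% and 2.21% after culture, with Wilson 95% intervals of at most ± 0.00676 percentage points. Of the library totals behind the FPKM values they were 0.845% and 0.850% at day 3 and 0.905% and 0.974% after culture. With the 10 features of highest mean count set aside, of which 0 are members, the shares of the remaining counts were 16.6% and 16.4% at day 3 and 11.8% and 16.9% after culture. On this last measure cultured library 1 was the lowest and cultured library 2 the highest, and the groups overlapped.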

How the data were processed

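The 4 tables, 1 per library, hold expected counts, FPKM and feature lengths, per the file headers. HISAT, Cufflinks and build mm9 are named in the submitters' processing notes without roles or versions. The tool behind the deposited expected counts: not given in the sources used here. FPKM values are the authors' normalization of the deposited counts, and the smallest listed is 0.01. Features missing from a table were taken as 0.

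Expected counts were rounded and tested with edgeR 4.0.16 (R 4.3.3; TMM, quasi-likelihood F test, two-sided) over 8557 features that reached FPKM 0.5 in 2 libraries or more, with Benjamini-Hochberg adjustment at 0.05. The standard error is the log2 fold change divided by the square root of F. Library totals were recovered from a line of count over FPKM on length (features of at least 500 counts and 1000 bases, 400 to 608 per library, 100% within 2%), and were 41416709 to 49290170. Read sharing meant equal length and counts within 10% in every library. Alternatives used DESeq2 1.42.0, limma 3.58.1, other filters, a replicate block and each library left out. Simulated counts had 200 changed features, and edgeR called 7 of 74, 38 of 62 and 60 of 64 changed 2-, 4- and 8-fold.

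The members and lists were chosen with earlier results of these data known. Features given in full were the 12 most abundant, the 5 tightest and 5 widest ratios, the 3 longest and shortest, those nearest each limit, called members and those sharing reads.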

Additional observations from a re-analysis of the deposited data

How the results depend on the processing

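Of 13 alternatives, 11 left edgeR or limma calling 0 members, DESeq2 called 1, and edgeR without cultured library 2 called 8. Leaving out each library gave 0 to 8 members called, 586 to 1260 changed features (232 to 412 higher, 354 to 848 lower) and a members' median log2 fold change of -0.64 to 0.11, against 1229 (502 and 727) and -0.16 with all libraries. The lone library of a group was then assumed to vary like the pair. Scaling by the FPKM totals gave 684 changed and 269 lower features and a members' median of 0.14. No filter gave 2540 (1133 and 1407) and FPKM 1 gave 744 (309 and 435), with more or fewer features tested. Limma gave 380 lower features at a pseudocount of 0.5, 741 changed with 338 lower at 0.1 and 747 with 356 lower at 1, and a members' median of 0.11 at each. The cause of the limma differences was not tested. No label says that equal replicate numbers mark a shared source, and deviations of same-numbered libraries from their group means had r = -0.12 over features. With a replicate block, 1204 features changed, 0 members among them, and crossed numbers gave 980, also with 0 members. It changed no call of a member.

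The rule kept 197 features at an FPKM minimum of 5, 65 at 20, 55 at a ratio limit of 1.5 and 169 at 3, and 123 to 145 without 1 library. The members' share of counts, 1.58% at day 3 and 2.07% after culture (means of 2), was 0.847% and 0.939% of the FPKM totals, 16.5% and 14.3% without the 10 features of highest mean count, and 1.51% and 1.97% with read-sharing features counted once. Of 338 values of 26 named members under the alternatives, 105 moved by more than the replicate spread. With 2 libraries a group, most 2-fold changes were below what edgeR called in simulated counts of features drawn from all those tested.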

Other observations

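Other features met the same level and ratio limits and are not among the 113. Of those left out by name, NONMMUG009163.2 and NONMMUG009157.2 had equal FPKM in each library, from 245905 to 343236 (ratio 1.40). NONMMUG043413.2 (173246 to 201433, ratio 1.16) and NONMMUG029036.2 (19638 to 29491, ratio 1.50) also met the limits. NONMMUG012896.2, also left out by name, did not, with a ratio of 2.10. With 10 or more transcripts there were 6, of which NONMMUG018330.2 (20 transcripts) was the most abundant at FPKM 3519, 2834, 3298 and 2221 (day 3 libraries 1 and 2, then cultured libraries 1 and 2). NONMMUG002215.2, with 24 transcripts, had the smallest ratio of highest to lowest FPKM among them, 1.25, with values of 232, 224, 254 and 203. Among LXLOC features, whose identifier is not explained in the sources used here, 38 had FPKM of 10 or more in all 4 libraries and fewer than 10 transcripts, and 9 of them (23.7%) stayed within 2 times, against 113 of 223 NONMMUG features (50.7%). That difference was not tested.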
